A study of Mus musculus with 18 samples.

Results

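Phase II conjugation was followed through 52 genes in cultured mouse liver cells. They are the genes, among the 18218 in the authors' deposited comparison tables, whose symbols begin with Ugt1, Ugt2, Ugt3, Sult or Mgst, or with Gst followed by one of the class letters a, k, m, o, p, t or z and a digit. The choice rests on symbols and not on measured values. By symbol, 20 are cytosolic or mitochondrial glutathione S-transferases (GST), 3 are microsomal glutathione S-transferases (MGST), 10 are sulfotransferases (SULT) and 19 are UDP-glycosyltransferases (UGT). The study treated plateable hepatocytes from male CD-1 mice, bought frozen, and sequenced their total RNA. The 6 groups of 3 libraries were PBS, siRNA, scrambled REVERSIR, TTR REVERSIR, siRNA + scrambled REVERSIR and siRNA + TTR REVERSIR. The siRNA silences Ttr, the gene of the thyroid hormone carrier transthyretin, and a REVERSIR is a short synthetic strand that pairs with the guide strand of an siRNA and lifts its silencing. No source used here gives doses, times of exposure, the animals' age or a genotype, and PBS is the only group without an oligonucleotide.

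Phase II enzymes attach a polar group to drugs, hormones, bilirubin and bile acids so that the product dissolves in water and can leave in bile or urine. UGT enzymes sit in the endoplasmic reticulum and transfer a sugar, for most members glucuronic acid from UDP-glucuronic acid. SULT enzymes transfer sulfate from the donor PAPS, and GST and MGST enzymes couple reactive compounds to glutathione. Liver cells hold these enzymes in large amounts, and their genes are known to respond to the receptors CAR, PXR and AHR and to the stress factor NRF2.

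The label check came first. Ttr was measured at 1034, 1080 and 1220 CPM in PBS replicates 1, 2 and 3 and at 220.5, 254 and 253 CPM with the siRNA. The scrambled REVERSIR libraries held 1135, 1064 and 1154 CPM and the TTR REVERSIR libraries 1357, 1083 and 1355 CPM. In the combined treatments it was 227, 225 and 226 CPM with scrambled REVERSIR and 1182, 1001 and 978 CPM with TTR REVERSIR. The siRNA libraries and the siRNA + scrambled REVERSIR libraries were low and did not overlap the other 4 groups. Library totals ran from 1755819 to 10145265 counts. CPM is a count scaled to the library total, adjusted by the trimmed mean of M-values (TMM), and CPM per kb divides by the exon length of the gene, which lets genes be compared. PBS replicates 1 and 2 stood apart: 24.3% and 24.1% of their counts came from the 2 mitochondrial ribosomal RNAs, against 1.69% to 9.56% in the other 16 libraries. Summed hepatocyte markers (8 of 8 tested) ran from 51789 to 62441 CPM in the PBS libraries and from 48064 to 55653 CPM in the treated libraries. Marker sums over all libraries were 281 to 387 CPM for Kupffer cells and macrophages, 45.4 to 70.7 CPM for endothelium, 120 to 161 CPM for stellate cells and fibroblasts and 9.84 to 16.4 CPM for cholangiocytes, and no marker list was at 0. The labels do not say whether replicates are separate cultures, so p-values measure the spread between these libraries, which may be technical. In bulk RNA, fewer cells of a type and less RNA per cell cannot be told apart.

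Of the 52 genes, 44 had enough counts to be tested, among 11153 tested genes. The other 8 (Gsto2, Gstt3, Mgst2, Sult2b1, Sult4a1, Sult6b1, Ugt1a7c and Ugt1a8) had 2 to 88 counts each over all 18 libraries. Together the 52 genes took 0.311% to 0.363% of the counts that were not mitochondrial ribosomal RNA. Their summed level per length was 1861 ± 83.6 CPM per kb (SD over the 18 libraries), and the highest group mean was 1.05 times the lowest. GST pi held 26.0% of that sum, UGT2 21.4%, GST mu 15.1% and MGST 14.8%. The remaining families each held 8.29% or less. These shares count all annotated exons as length. With the longest transcript as length MGST stood at 473 CPM per kb and passed UGT2, which was at 430 or less. Replicates were about as tight as for other genes: the median within-group SD of log2(CPM + 1) was 0.173 over the tested members and 0.165 over all tested genes.

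**Figure D1:**
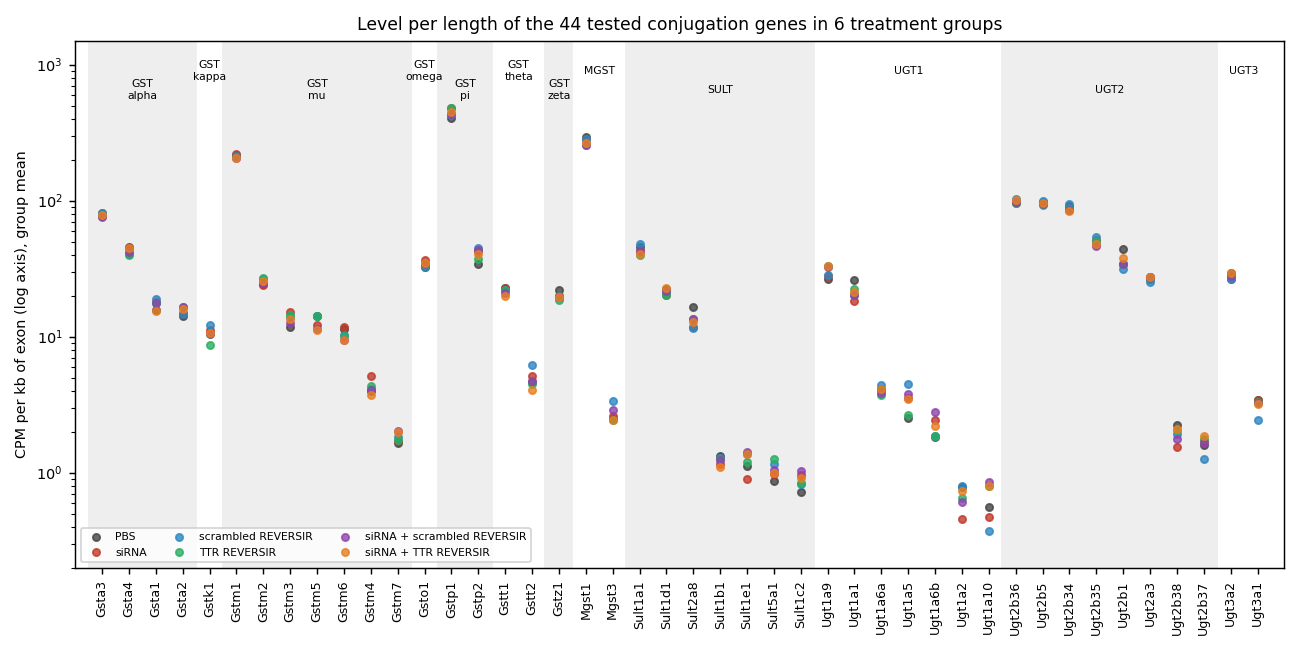
Group means of the 44 tested genes in CPM per kb of exon on a log axis, ordered by family and, within it, by level; each point is the mean of 3 libraries of 1 treatment group. Gstp1, Mgst1 and Gstm1 lie highest, and for most genes the 6 points nearly coincide.

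The pi class was led by Gstp1, at 444 ± 52.8 CPM per kb the most abundant member per length when all annotated exons are counted. GSTP enzymes conjugate electrophiles in the cytosol and are known as male-predominant in mouse liver. PBS libraries held 311, 315 and 296 CPM of Gstp1, and siRNA libraries 381, 372 and 324 CPM. With an oligonucleotide alone the level was 340.3, 285 and 333 CPM for scrambled REVERSIR and 417, 283 and 379.7 CPM for TTR REVERSIR. With the siRNA added it was 336, 303 and 338 CPM and 399, 311 and 299 CPM, in that order. All 3 siRNA libraries were above the PBS libraries, and each other treated group had libraries on both sides of the highest PBS value. TTR REVERSIR against PBS gave a log2 fold change of 0.24 ± 0.11 (SE), which did not pass edgeR's quasi-likelihood test (adjusted p = 0.287). Its neighbour Gstp2 stood at 40.6 ± 7.66 CPM per kb. The pair lies on chromosome 19, at chr19:4035411-4037921 and chr19:4040291-4042221 (NCBIM37). Of their 633 coding bases 12 differ, and 67.5% of the 50-base windows of Gstp1 transcripts also occur in Gstp2. The first 60 coding bases hold 6 of the differences, shown here in capitals because reads over such bases are what separates the 2 counts.
Gstp1: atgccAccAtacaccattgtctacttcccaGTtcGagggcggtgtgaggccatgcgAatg
Gstp2: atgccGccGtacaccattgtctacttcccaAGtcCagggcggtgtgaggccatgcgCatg
No source used here says how reads that fit both genes were counted, so the split between them is uncertain.

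Of the mu class all 7 genes were tested, and Gstm1 was the most abundant at 212 ± 8.17 CPM per kb. For Gstm1 the PBS values were 290.2, 302 and 306 CPM and the siRNA values 296, 319.6 and 311 CPM. Scrambled REVERSIR gave 303, 304 and 285 CPM and TTR REVERSIR 289, 288 and 296 CPM. The siRNA with scrambled REVERSIR gave 284, 283 and 297 CPM, and with TTR REVERSIR 283, 276 and 296 CPM. All 18 values lay between 276 and 319.6 CPM, and each treated group overlapped PBS. Gstm2 followed at 25.3 ± 1.84 CPM per kb, and Gstm3, Gstm5 and Gstm6 were between 10.5 and 13.6 CPM per kb. Gstm4 and Gstm7 were lowest, at 4.22 and 1.83 CPM per kb. No gene of the class passed the test in any comparison. The nearest were Gstm3 for siRNA against PBS, at 0.39 ± 0.14 (SE) with adjusted p = 0.133, and Gstm6 for siRNA + scrambled REVERSIR against PBS, at −0.28 ± 0.12 (SE) with adjusted p = 0.234 (edgeR). In the annotation Gstm3 shares 5.89% of its exonic bases with Gstm6. Gstm6 shares 7.94% of its own with Gstm3 and Gm12494 together.

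In the alpha class Gsta3, a conjugator of aflatoxin epoxide in mice, stood highest at 78.7 ± 4.97 CPM per kb. Under PBS, Gsta3 counts came to 115, 107 and 97.8 CPM, and under the siRNA to 109.8, 119.6 and 112 CPM. They came to 121, 103 and 117 CPM under scrambled REVERSIR and to 107, 108 and 114 CPM under TTR REVERSIR. Both agents together gave 104, 106 and 106 CPM with the scrambled and 120.3, 104 and 101 CPM with the TTR oligonucleotide. Each treated group overlapped PBS. Gsta4, which clears aldehydes of lipid peroxidation, was at 42.8 ± 4.42 CPM per kb, Gsta1 at 17.3 ± 2.10 CPM per kb and Gsta2 at 15.5 ± 1.999 CPM per kb. Gsta1 shares 89.7% of its 50-base windows with Gsta2 and other annotated genes, so its counts are uncertain. Gsta1 was measured at 15.5, 16.4 and 13.4 CPM in PBS replicates 1, 2 and 3 and at 17.4, 15.8 and 18.01 CPM with the siRNA. The scrambled REVERSIR libraries held 17.03, 20.2 and 17.4 CPM and the TTR REVERSIR libraries 20.7, 13.6 and 16.7 CPM. In the combined treatments it was 17.8, 15.8 and 17.2 CPM with scrambled REVERSIR and 15.8, 13.9 and 14.5 CPM with TTR REVERSIR. It had the smallest p of the members for siRNA + TTR REVERSIR against TTR REVERSIR, at −0.27 ± 0.13 (SE) on the log2 scale, with adjusted p = 0.9998 (edgeR).

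The smaller GST classes were represented by 1 well-expressed gene each. Gsto1, an omega enzyme that reduces rather than conjugates many of its substrates, was at 33.9 ± 2.51 CPM per kb. PBS libraries held 61.7, 63.5 and 66.6 CPM of Gsto1, and siRNA libraries 69.9, 77.6 and 66.8 CPM. With an oligonucleotide alone the level was 71.9, 53.7 and 65.2 CPM for scrambled REVERSIR and 68.9, 65.5 and 64.7 CPM for TTR REVERSIR. With the siRNA added it was 65.8, 67.1 and 67.5 CPM and 70.2, 70.7 and 63.7 CPM, in that order. Scrambled REVERSIR replicate 2 was the lowest library and siRNA replicate 2 the highest. The siRNA libraries lay just above the PBS libraries, and the other groups overlapped PBS. Gstt1, of the theta class that handles small halogenated compounds, stood at 21.7 ± 2.28 CPM per kb. For Gstt1 the PBS values were 33.9, 36.5 and 33.5 CPM and the siRNA values 38.1, 33.2 and 33.2 CPM. Scrambled REVERSIR gave 31.8, 34.9 and 34.3 CPM and TTR REVERSIR 38.2, 29.6 and 32.8 CPM. The siRNA with scrambled REVERSIR gave 31.2, 28.3 and 36.98 CPM, and with TTR REVERSIR 36.3, 27.9 and 26.4 CPM. The siRNA + TTR REVERSIR libraries held both a high and 2 low values, so the spread within that group spanned most of the range. Gstt2 was lower, at 4.87 ± 1.02 CPM per kb.

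Gstz1, which acts as maleylacetoacetate isomerase in tyrosine breakdown, was at 19.9 ± 1.98 CPM per kb. Under PBS, Gstz1 counts came to 37.7, 39.4 and 33.03 CPM, and under the siRNA to 30.4, 35.5 and 33.3 CPM. They came to 29.5, 33.1 and 35.98 CPM under scrambled REVERSIR and to 33.7, 25.01 and 33.8 CPM under TTR REVERSIR. Both agents together gave 30.04, 33.3 and 33.2 CPM with the scrambled and 34.1, 29.7 and 33.3 CPM with the TTR oligonucleotide. TTR REVERSIR replicate 2 was lowest and PBS replicate 2 highest. Gstk1, the mitochondrial and peroxisomal kappa enzyme, was at 10.6 ± 1.54 CPM per kb and rested on 14 to 109 counts per library. Gstk1 was measured at 9.72, 10.1 and 9.08 CPM in PBS replicates 1, 2 and 3 and at 9.32, 11.6 and 10.3 CPM with the siRNA. The scrambled REVERSIR libraries held 11.4, 12.99 and 9.56 CPM and the TTR REVERSIR libraries 8.32, 6.37 and 9.66 CPM. In the combined treatments it was 10.9, 8.35 and 10.6 CPM with scrambled REVERSIR and 10.2, 9.70 and 9.65 CPM with TTR REVERSIR. TTR REVERSIR replicate 2 was again the lowest library. TTR REVERSIR against scrambled REVERSIR gave −0.46 ± 0.20 (SE) for Gstk1 on the log2 scale, with adjusted p = 0.623 (edgeR).

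Among the microsomal enzymes Mgst1, a membrane-bound transferase and peroxidase that guards against lipid damage, was second of all members at 273 ± 17.01 CPM per kb, though with the longest transcript as length it came first, at 471 CPM per kb against 444 for Gstp1. PBS libraries held 633, 556 and 579.9 CPM of Mgst1, and siRNA libraries 547, 555 and 587 CPM. With an oligonucleotide alone the level was 553, 565 and 591 CPM for scrambled REVERSIR and 524, 511 and 519 CPM for TTR REVERSIR. With the siRNA added it was 519, 508 and 535 CPM and 569.6, 517 and 517 CPM, in that order. TTR REVERSIR libraries lay below all PBS and all scrambled REVERSIR libraries, and siRNA + scrambled REVERSIR libraries did as well. Against PBS, Mgst1 gave −0.19 ± 0.063 (SE) for TTR REVERSIR (adjusted p = 0.134) and −0.18 ± 0.062 (SE) for siRNA + scrambled REVERSIR (adjusted p = 0.131) on the log2 scale, neither past edgeR's threshold of 0.05. Mgst3 stood at 2.70 ± 0.720 CPM per kb, and Mgst2, of leukotriene synthesis, had 4 counts in all.

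Of the 10 sulfotransferases 7 were tested. Sult1a1, which sulfates phenols, was the most abundant at 43.2 ± 3.29 CPM per kb. For Sult1a1 the PBS values were 70.02, 69.8 and 65.8 CPM and the siRNA values 69.1, 62.1 and 61.1 CPM. Scrambled REVERSIR gave 68.1, 72.8 and 74.8 CPM and TTR REVERSIR 60.7, 58.2 and 61.6 CPM. The siRNA with scrambled REVERSIR gave 63.2, 63.7 and 66.5 CPM, and with TTR REVERSIR 62.2, 65.6 and 56.6 CPM. TTR REVERSIR libraries were below all scrambled REVERSIR and all PBS libraries, and so were the siRNA + TTR REVERSIR libraries. The siRNA + scrambled REVERSIR libraries were below all scrambled REVERSIR libraries but overlapped PBS. The log2 fold change of TTR REVERSIR against scrambled REVERSIR was −0.25 ± 0.085 (SE), with adjusted p = 0.538 (edgeR), and it had the smallest p of the members there. Sult1d1, which sulfates catecholamines, was at 21.5 ± 1.92 CPM per kb. Sult1b1, Sult1c2, Sult1e1 and Sult5a1 were each at 0.882 to 1.23 CPM per kb, with 1 to 38 counts per library. Sult1e1 is the estrogen sulfotransferase.

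Sult2a8, a bile acid sulfotransferase of mouse liver (ENSMUSG00000030378, chr7:14996036-15032118, minus strand, NCBIM37), stood at 13.2 ± 2.23 CPM per kb. Under PBS, Sult2a8 counts came to 41.1, 44.6 and 31.5 CPM, and under the siRNA to 21.3, 31.1 and 30.9 CPM. They came to 27.6, 29.7 and 24.2 CPM under scrambled REVERSIR and to 30.8, 30.02 and 34.8 CPM under TTR REVERSIR. Both agents together gave 32.3, 31.8 and 30.7 CPM with the scrambled and 32.3, 27.4 and 30.4 CPM with the TTR oligonucleotide. PBS replicates 1 and 2 were above all 15 treated libraries, while PBS replicate 3 lay among them. Of the other genes of this subfamily, Sult2a1 to Sult2a6 are annotated but fall outside the chosen 52, and all 6 had 0 counts in every library. These Sult2a genes are known as female-predominant in mouse liver. How reads that fit several of these genes were counted is not given, and the reason for the 0 counts was not tested.

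The UGT1 genes share 1 locus on chromosome 1, in which each enzyme has its own substrate-binding part and shares the rest. In the annotation 7 of the 9 genes join their own first exon to a common second exon at chr1:90111619-90111750 (NCBIM37), while Ugt1a6a and Ugt1a6b begin with a further exon and have second exons of their own. The joints, shown for 5 of the 7, show how a read is assigned, since after the joint the sequence no longer names the gene. The last 30 bases of the first exon are in lower case and the first 30 of the common exon in capitals.
Ugt1a1: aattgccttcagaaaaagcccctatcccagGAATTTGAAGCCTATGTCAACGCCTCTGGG
Ugt1a9: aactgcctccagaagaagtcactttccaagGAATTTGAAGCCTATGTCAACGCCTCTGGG
Ugt1a10: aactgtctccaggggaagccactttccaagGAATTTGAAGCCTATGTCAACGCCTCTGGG
Ugt1a2: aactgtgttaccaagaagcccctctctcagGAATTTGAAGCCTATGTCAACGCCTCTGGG
Ugt1a5: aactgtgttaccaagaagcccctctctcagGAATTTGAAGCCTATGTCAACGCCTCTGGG
Ugt1a2 and Ugt1a5 have the same 30 bases before the joint. Between 58.0% and 91.0% of the 50-base windows of the UGT1 genes occur in another gene, so their counts depend on a counting rule that is not given. The annotated antisense gene Gm20528 in this locus had at most 1 count per library.

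By all annotated exons Ugt1a9, which glucuronidates phenols, stood highest of the locus at 30.2 ± 3.50 CPM per kb. Ugt1a1, which conjugates bilirubin, followed at 21.5 ± 3.61 CPM per kb. Other genes share 82.7% of the exonic bases of Ugt1a1, on either strand, and 59.9% of those of Ugt1a9. How reads over shared bases were counted is not given, so this order per length is uncertain. Ugt1a9 was measured at 58.9, 51.1 and 65.5 CPM in PBS replicates 1, 2 and 3 and at 64.04, 58.8 and 59.3 CPM with the siRNA. The scrambled REVERSIR libraries held 64.7, 51.6 and 69.7 CPM and the TTR REVERSIR libraries 72.2, 67.8 and 76.04 CPM. In the combined treatments it was 69.1, 71.3 and 71.5 CPM with scrambled REVERSIR and 77.2, 74.3 and 66.9 CPM with TTR REVERSIR. TTR REVERSIR, siRNA + scrambled REVERSIR and siRNA + TTR REVERSIR libraries all lay above the 3 PBS libraries, and the other 2 treated groups overlapped PBS. PBS libraries held 67.2, 53.6 and 52.7 CPM of Ugt1a1, and siRNA libraries 46.6, 40.4 and 34.4 CPM. With an oligonucleotide alone the level was 43.9, 37.2 and 53.4 CPM for scrambled REVERSIR and 57.9, 41.8 and 50.7 CPM for TTR REVERSIR. With the siRNA added it was 45.97, 41.7 and 48.4 CPM and 52.8, 49.4 and 40.8 CPM, in that order. All siRNA libraries and all siRNA + scrambled REVERSIR libraries were below the 3 PBS libraries. Scrambled REVERSIR, TTR REVERSIR and siRNA + TTR REVERSIR each overlapped PBS. Ugt1a6a, Ugt1a5 and Ugt1a6b were at 2.16 to 4.05 CPM per kb, and Ugt1a2 and Ugt1a10 at 0.672 and 0.640 CPM per kb.

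All 8 UGT2 genes, clustered on chromosome 5 and acting on steroids, bile acids and drugs, were tested. Ugt2b36, Ugt2b5 and Ugt2b34 lay close together per length, at 98.7 ± 4.82 CPM per kb, 95.98 ± 4.89 CPM per kb and 87.9 ± 5.29 CPM per kb. For Ugt2b36 the PBS values were 222, 199.8 and 189 CPM and the siRNA values 196, 198 and 195 CPM. Scrambled REVERSIR gave 206, 207 and 219.8 CPM and TTR REVERSIR 206, 189 and 197 CPM. The siRNA with scrambled REVERSIR gave 199, 194 and 214 CPM, and with TTR REVERSIR 216, 206 and 203 CPM. Each treated group overlapped PBS for Ugt2b36. Ugt2b35 came next at 49.8 ± 3.93 CPM per kb. Under PBS, Ugt2b35 counts came to 175, 151 and 152 CPM, and under the siRNA to 176, 168 and 169 CPM. They came to 170.3, 169.5 and 197 CPM under scrambled REVERSIR and to 171, 169 and 158 CPM under TTR REVERSIR. Both agents together gave 148, 149 and 168 CPM with the scrambled and 176, 149.6 and 152 CPM with the TTR oligonucleotide. Scrambled REVERSIR replicate 3 was the highest library, and siRNA + scrambled REVERSIR lay below all scrambled REVERSIR libraries. Ugt2b35 had the smallest p of the members for siRNA + scrambled REVERSIR against scrambled REVERSIR, at −0.20 ± 0.081 (SE) on the log2 scale, with adjusted p = 0.741 (edgeR). Ugt2b5 shares 41.1% and Ugt2b38 37.4% of its 50-base windows with other genes of the cluster, while Ugt2b1 shares none.

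Ugt2b1, with steroids among its substrates (ENSMUSG00000035836, chr5:87345663-87355555, minus strand, NCBIM37), stood at 36.003 ± 5.12 CPM per kb. Ugt2b1 was measured at 128, 121 and 91.3 CPM in PBS replicates 1, 2 and 3 and at 83.5, 93.4 and 86.9 CPM with the siRNA. The scrambled REVERSIR libraries held 84.4, 82.7 and 76.5 CPM and the TTR REVERSIR libraries 93.3, 82.3 and 86.7 CPM. In the combined treatments it was 91.5, 86.8 and 87.3 CPM with scrambled REVERSIR and 103, 91.1 and 97.7 CPM with TTR REVERSIR. PBS replicates 1 and 2 were above all 15 treated libraries, and PBS replicate 3 was within their range. Ugt2a3 stood at 26.9 ± 2.02 CPM per kb, and Ugt2b37 and Ugt2b38 at 1.63 and 1.93 CPM per kb. Of the UGT3 pair, which use sugars other than glucuronic acid, Ugt3a2 was at 28.03 ± 2.37 CPM per kb and Ugt3a1 at 3.16 ± 0.550 CPM per kb. PBS libraries held 90.8, 92.6 and 91.8 CPM of Ugt3a2, and siRNA libraries 90.2, 83.3 and 75.4 CPM. With an oligonucleotide alone the level was 80.6, 69.4 and 96.7 CPM for scrambled REVERSIR and 89.6, 80.5 and 93.9 CPM for TTR REVERSIR. With the siRNA added it was 88.7, 83.2 and 86.3 CPM and 98.03, 89.04 and 84.8 CPM, in that order. The siRNA and siRNA + scrambled REVERSIR libraries lay below the 3 close PBS values, and the other groups overlapped PBS.

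Summed by family, the treatments differed little. The highest group mean was 1.05 times the lowest for GST alpha, 1.06 times for UGT2, 1.08 times for GST mu and 1.12 to 1.19 times for GST omega, GST pi, GST theta, GST zeta, MGST, SULT, UGT1 and UGT3. GST kappa, which is Gstk1 alone, had the widest ratio at 1.39. The sums are a description, with no test. SULT and MGST were highest in PBS, at 89.0 and 296 CPM per kb, and lowest with TTR REVERSIR, at 78.4 and 259.8 CPM per kb. GST pi was lowest in PBS, at 442 CPM per kb, and highest with siRNA, at 519 CPM per kb.

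**Figure D2:**
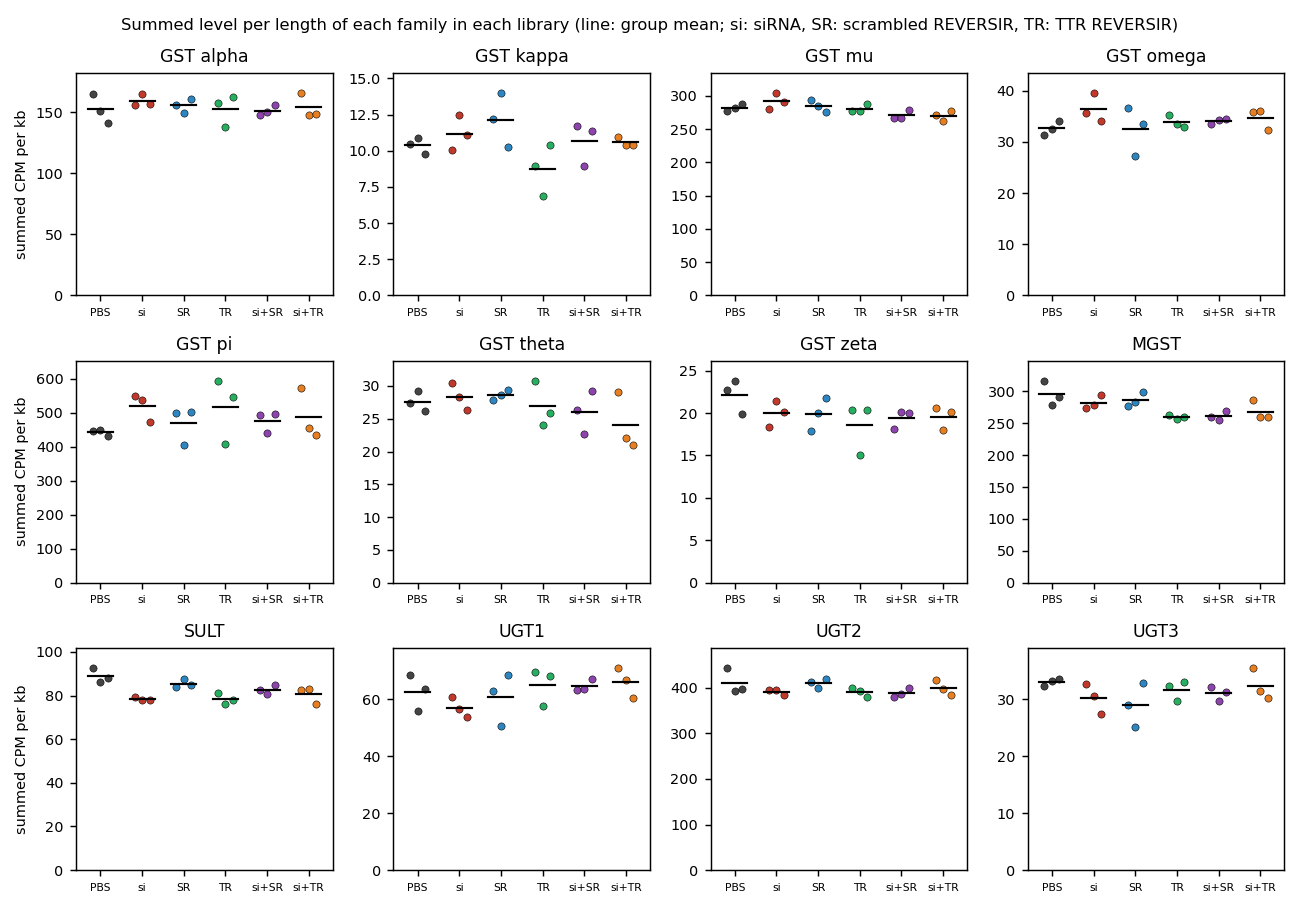
Summed CPM per kb of each of the 12 families (1 panel each, vertical axis from 0) in every library, by treatment group; points are libraries and lines group means. The points of the groups overlap in most panels, and the mean SULT and MGST sums are highest in PBS, whose points overlap those of scrambled REVERSIR.

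The siRNA against PBS comparison joins the silencing of Ttr with exposure to an oligonucleotide, and it cannot tell them apart. No control siRNA was among the groups. Ugt2b1, Ugt1a1 and Sult2a8 were lower with siRNA, and no member was higher: 3 of 44 tested members passed, beside 2.62% of all 11153 tested genes, and 1.6% of them in the lower direction. Ugt1a1 (ENSMUSG00000089960, chr1:90108534-90115572, plus strand, NCBIM37) fell by 0.54 ± 0.13 (SE) on the log2 scale (adjusted p = 0.0308, edgeR, 3 libraries a group), with a 95% interval −0.81 to −0.27. Sult2a8 fell by 0.48 ± 0.13 (adjusted p = 0.044, 95% interval −0.75 to −0.22, edgeR), and Ugt2b1 by 0.37 ± 0.090 (adjusted p = 0.0288, 95% interval −0.56 to −0.19, edgeR). The libraries of the 2 groups did not overlap for Ugt1a1 and Sult2a8, and for Ugt2b1 they did. At an unadjusted p under 0.05 there were 5 members, beside 20.1% of all tested genes. The median log2 fold change of the members was −0.0061, beside 0.0029 over all tested genes.

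Summed stellate cell and fibroblast markers (5 of 8 tested) were also lower with siRNA, at 120 to 129 CPM against 144 to 150 CPM in PBS, and hepatocyte markers ran from 48064 to 52343 CPM against 51789 to 62441 CPM. What part these differences had in the 3 calls was not tested.

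The 3 calls were sensitive to which libraries were fitted, among them PBS replicates 1 and 2 with the high share of mitochondrial ribosomal RNA. Without both, PBS is 1 library, its spread is taken from the other groups, and 0.00868% of all tested genes were called, so little could pass. The log2 fold change was then −0.39 for Ugt1a1, −0.16 for Sult2a8 and −0.05 for Ugt2b1. Leaving out PBS replicate 1, PBS replicate 2, siRNA replicate 2 or siRNA replicate 3 left none of the 3 past edgeR's threshold, with 0.0089% to 0.392% of all tested genes called. In those 4 fits Ugt1a1 was at −0.41, −0.59, −0.55 and −0.42. In that order Sult2a8 was at −0.44, −0.37, −0.55 and −0.57, and Ugt2b1 at −0.27, −0.32, −0.41 and −0.36. Several of these folds were as large as with all libraries. Without siRNA replicate 1, Ugt1a1 alone passed, beside 0.542% of all tested genes. Without PBS replicate 3 all 3 passed and Gstm3 was called higher, which is 4 of 44 members, beside 12% of all tested genes. Scaling by library totals alone moved the median of all tested genes to 0.33 on the log2 scale. On that scaling the 3 genes were at −0.20, −0.14 and −0.03, none passed, and 13 other members were called higher and 0 lower, which is 29.5% of the members beside 34.5% of all tested genes. With the mitochondrial ribosomal RNAs left out of the counts and all 18 libraries kept, 3 of 44 members were called, beside 2.66% of all tested genes. What else sets PBS replicates 1 and 2 apart, and its part in these results, was not tested.

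Scrambled REVERSIR against PBS asks what an oligonucleotide does with no siRNA present. Ugt2b1 was lower, by 0.48 ± 0.10 (SE) on the log2 scale (adjusted p = 0.036, 95% interval −0.69 to −0.27, edgeR), and its 3 libraries did not overlap PBS. It was the only call among the 44 tested members, beside 0.421% of all tested genes and 0.305% called lower. At an unadjusted p under 0.05 there were 4 members, beside 14.7% of all tested genes. Sult2a8 was at −0.51 ± 0.15 (SE) with adjusted p = 0.111 (edgeR), and Ugt1a5, at 3.41 CPM per kb, was at 0.76 ± 0.25 (SE) with adjusted p = 0.145 (edgeR). For Ugt2b1 the fold stayed between −0.39 and −0.51 while the call was lost without PBS replicate 1 or 2, or without any 1 of the scrambled REVERSIR libraries (edgeR's adjusted p = 0.0618 to 0.22), where 0% to 0.376% of all tested genes were called. Without both PBS libraries, which leaves PBS as 1 library with its spread taken from the other groups and 0 genes called, the value was −0.16. Without PBS replicate 3 it was −0.61 (adjusted p = 5.00e-05, edgeR), and 2 members, Ugt2b1 and Sult2a8, were called beside 6.56% of all tested genes. By library totals alone it was −0.17 and 7 other members were called higher, 15.9% of the members beside 14.2% of all tested genes. Summed cholangiocyte markers (3 of 6 tested) ran from 9.84 to 12.99 CPM with scrambled REVERSIR, below the 13.5 to 16.4 CPM of PBS. With TTR REVERSIR they ran from 10.9 to 13.3 CPM, also below PBS. The other marker lists overlapped PBS in both groups, and what part the difference had in the call was not tested.

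TTR REVERSIR against PBS gave no call among the members by edgeR, beside 0.699% of all tested genes. There were 6 members at an unadjusted p under 0.05, beside 16.4% of all tested genes, and DESeq2 called 1, Ugt2b1. Ugt2b1 was at −0.37 ± 0.094 (SE) on the log2 scale (adjusted p = 0.0616, edgeR), and Ugt1a9 at 0.31 ± 0.097 (SE) (adjusted p = 0.11, edgeR). The siRNA + scrambled REVERSIR group against PBS likewise gave 0 calls by edgeR, beside 0.61% of all tested genes, with 10 members at an unadjusted p under 0.05, beside 17.7%, and DESeq2 again called Ugt2b1 alone. There Ugt2b1 was at −0.36 ± 0.088 (SE) (adjusted p = 0.0524, edgeR). Ugt1a1 was at −0.36 ± 0.13 (SE) (adjusted p = 0.137, edgeR).

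The siRNA + TTR REVERSIR group against PBS had 0 members called by edgeR and 0 by DESeq2, beside 0.789% of all tested genes by edgeR, and 9 members at an unadjusted p under 0.05, beside 17.7%. Ugt1a9 had the smallest p there, at 0.32 ± 0.092 (SE) on the log2 scale (adjusted p = 0.0767, edgeR), with no overlap between the libraries of the groups. All 5 comparisons against PBS share the same 3 PBS libraries, so they are not independent. Side by side, on the log2 scale, Ugt2b1 was at −0.48 under scrambled REVERSIR, −0.37 under TTR REVERSIR and −0.37 under siRNA, and in the combined groups at −0.23 with TTR REVERSIR and −0.36 with scrambled REVERSIR. For Ugt1a9 the values in that order were 0.07, 0.31, 0.05, 0.32 and 0.27. Without PBS replicate 3, edgeR called 3 members in TTR REVERSIR (Sult2a8, Ugt1a9 and Ugt2b1), 4 in siRNA + scrambled REVERSIR (these and Sult1c2) and 3 in siRNA + TTR REVERSIR (Sult2a8, Ugt1a9 and Ugt2b1). These are 6.82%, 9.09% and 6.82% of the members, beside 8.56%, 10% and 10.1% of all tested genes. Without TTR REVERSIR replicate 2, Gstp1 was called in TTR REVERSIR, 1 of 44 members beside 3.29% of all tested genes.

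**Figure D3:**
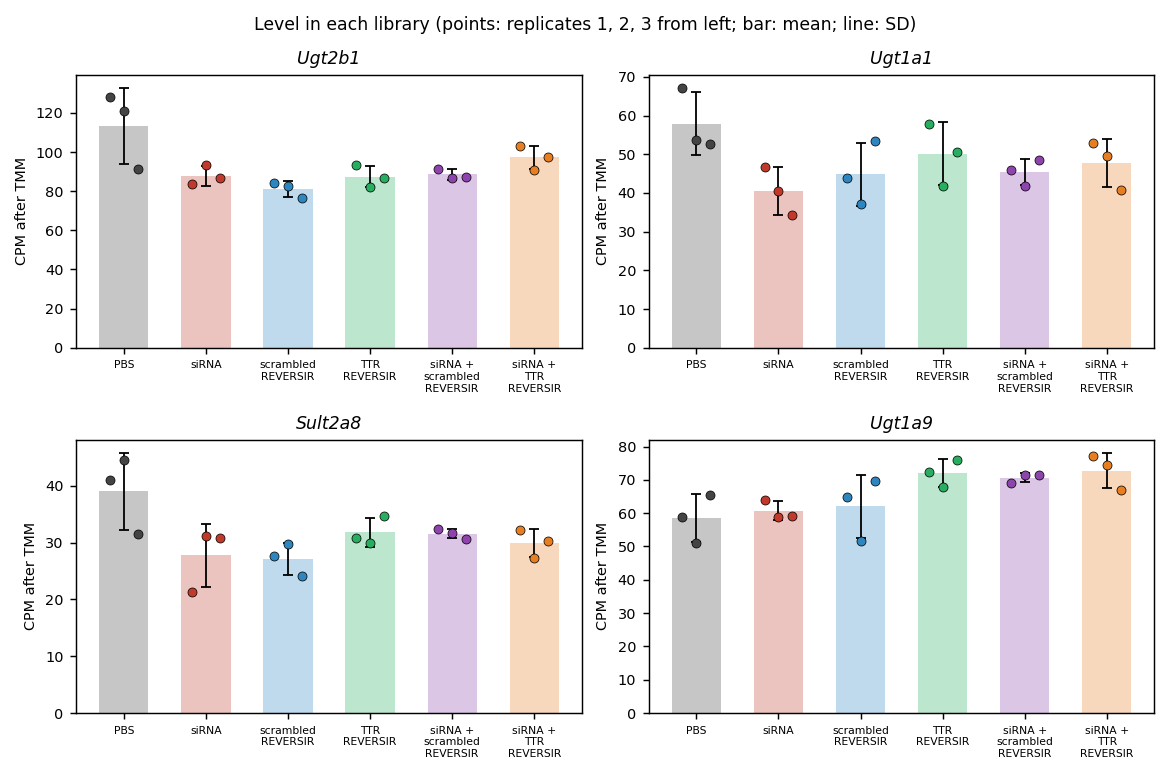
CPM after TMM of Ugt2b1, Ugt1a1, Sult2a8 and Ugt1a9 in each library (points, replicates 1 to 3 from left), with group mean (bar, axis from 0) and SD (line, n = 3). PBS replicates 1 and 2 are above every treated library for Ugt2b1 and Sult2a8, and Ugt1a9 is highest in the TTR REVERSIR and combined groups.

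Comparisons among treated groups set no PBS library against another, but the filter, scaling and spread were still fitted over all 18 libraries, PBS included. Adding the siRNA to scrambled REVERSIR gave 0 member calls by edgeR and 0 by DESeq2, beside 0.0179% of all tested genes by edgeR, with 4 members at an unadjusted p under 0.05, beside 6.22%. Adding it to TTR REVERSIR gave 0 calls by either tool and 0 at an unadjusted p under 0.05, beside 0% and 4.44% of all tested genes. Between the 2 combined groups there were 0 calls by either tool and 0 at an unadjusted p under 0.05, beside 0.00897% and 2.17% of all tested genes. Ugt2b1 had the smallest p of the members there, at 0.14 ± 0.086 (SE) on the log2 scale (adjusted p = 0.9999, edgeR). TTR REVERSIR against scrambled REVERSIR gave 0 calls by either tool, beside 0.0179% of all tested genes by edgeR, and 5 members at an unadjusted p under 0.05, beside 7.33%.

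Asked for any difference among the 6 groups, edgeR called 0 members, beside 0.224% of all tested genes, and 8 had an unadjusted p under 0.05, beside 13.6%. Ugt2b1 was nearest (adjusted p = 0.0872, edgeR), and DESeq2 called Ugt2b1 and Ugt1a9. Among the 5 treated groups edgeR and DESeq2 called 0 members, beside 0.0269% of all tested genes by edgeR, and 1 member, Ugt1a9, had an unadjusted p under 0.05, beside 5.16% (adjusted p = 0.829, edgeR). The precision can be read from the intervals: for siRNA against PBS, 24 of 44 members had a 95% interval within 0.5 of 0 on the log2 scale, and 38 within 1. For siRNA + TTR REVERSIR against siRNA + scrambled REVERSIR it was 32 and 43.

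**Figure D4:**
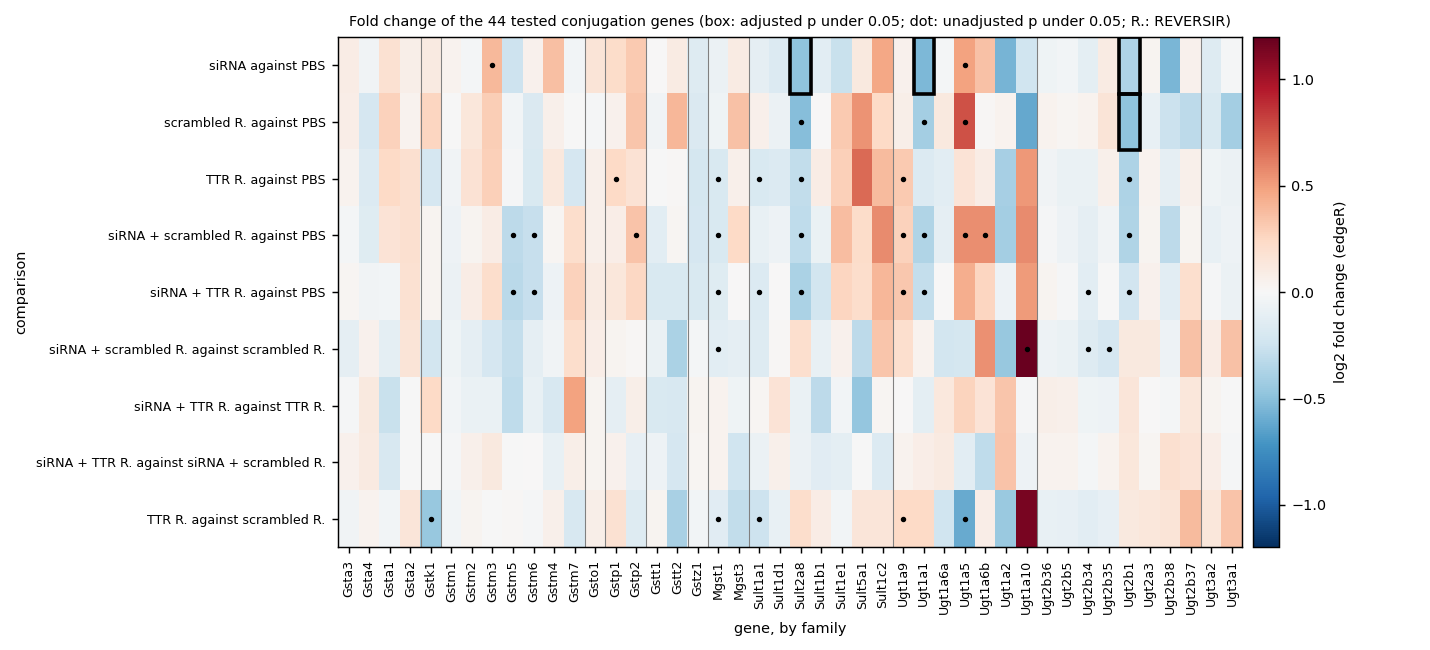
Log2 fold changes (colour) of the 44 tested genes, by family on the horizontal axis, in 9 comparisons on the vertical axis; boxes mark edgeR adjusted p under 0.05 and dots unadjusted p under 0.05. The 4 boxes are Sult2a8, Ugt1a1 and Ugt2b1 for siRNA and Ugt2b1 for scrambled REVERSIR, all lower than PBS.

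The sequence just upstream of these genes was read for 3 motifs on both strands in the 250 bases before each start. RefSeq (GRCm38.p6) gave 59 promoters for 47 of the members and 32536 for all genes. GTTAATNAT, a core of sites of the liver factor HNF1, occurred in 4 member promoters (6.78%), those of Sult1d1, Ugt1a1, Ugt1a10 and Ugt1a9, beside 0.744% of all promoters. TGACNNNGC, the core of the antioxidant response element bound by NRF2, occurred in 4 (6.78%: Gsta3, Gstm5, Gstm7 and Mgst1), beside 10.2%, and TATAAA in 7 (11.9%), beside 12.3%. The 120 bases before the start are shown for 3 UGT1 genes with the HNF1 core in capitals, and for Ugt2b1, which has none, because Ugt1a1 and Ugt2b1 were called lower with siRNA and Ugt1a9 was not.
Ugt1a1 (chr1:88211839-88211958, + strand): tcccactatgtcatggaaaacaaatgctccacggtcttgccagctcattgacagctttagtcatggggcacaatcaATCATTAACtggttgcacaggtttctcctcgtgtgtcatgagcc
Ugt1a9 (chr1:88070659-88070778, + strand): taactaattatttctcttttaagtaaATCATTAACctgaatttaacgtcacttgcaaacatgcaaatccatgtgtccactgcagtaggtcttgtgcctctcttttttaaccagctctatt
Ugt1a10 (chr1:88055291-88055410, + strand): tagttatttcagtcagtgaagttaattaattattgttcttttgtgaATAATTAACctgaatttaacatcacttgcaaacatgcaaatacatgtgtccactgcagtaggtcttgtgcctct
Ugt2b1 (chr5:86926504-86926623, - strand): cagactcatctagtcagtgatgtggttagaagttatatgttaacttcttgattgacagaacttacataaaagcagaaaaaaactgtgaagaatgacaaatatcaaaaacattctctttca
From the HNF1 core to the end of the shorter stretch, Ugt1a9 and Ugt1a10 differ at 3 of 74 bases. The 2 genes differ in level, at 30.2 and 0.640 CPM per kb. A match is a description of letters and not of a bound site.

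Genes around the conjugation step were taken from lists by function, drawn up with earlier results of these data known. Of 15 tested genes that supply cofactors, 2 were lower for siRNA against PBS: Ugp2, which makes UDP-glucose for UDP-glucuronic acid, and Gclc, the catalytic subunit of the first step of glutathione synthesis. Over all tested genes 2.62% were called there and 1.6% were called lower. For Ugp2 the PBS values were 1374, 1274 and 1166 CPM and the siRNA values 1112, 1008 and 886 CPM. Scrambled REVERSIR gave 1165, 1088 and 1186 CPM and TTR REVERSIR 1273, 1218 and 1313 CPM. The siRNA with scrambled REVERSIR gave 1129, 1157 and 1109 CPM, and with TTR REVERSIR 1232, 1246 and 1095 CPM. Ugp2 fell by 0.34 ± 0.082 (SE) on the log2 scale (adjusted p = 0.0279, edgeR), with all siRNA libraries below the PBS libraries. Gclc was measured at 987, 854 and 841 CPM with PBS and at 795, 731 and 720.3 CPM with siRNA, again without overlap. It fell by 0.26 ± 0.070 (SE) (adjusted p = 0.048, edgeR), but was at 0.059 by library totals alone, where Ugp2 was at −0.03. The list's median was −0.0099, beside 0.0029 over all tested genes, and 8 of its 15 had an unadjusted p under 0.05, beside 20.1% of all tested genes.

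Of 12 tested regulators, 1 was called: Ahr, the receptor for dioxins and other planar compounds, was lower for siRNA + TTR REVERSIR against PBS, where 0.789% of all tested genes were called. PBS libraries held 149, 121 and 118 CPM of Ahr, and siRNA libraries 108, 104 and 118 CPM. With an oligonucleotide alone the level was 126, 129.5 and 130.4 CPM for scrambled REVERSIR and 112, 131 and 123 CPM for TTR REVERSIR. With the siRNA added it was 107, 106 and 108 CPM and 96.3, 102 and 104 CPM, in that order. The siRNA + TTR REVERSIR libraries were below all libraries of the other 5 groups. Ahr fell by 0.37 ± 0.077 (SE) on the log2 scale (adjusted p = 0.0283, edgeR), and was at −0.03 by library totals alone. Summed stellate cell and fibroblast markers were also lower in that group, at 127 to 135 CPM against 144 to 150 CPM in PBS, and their part was not tested. The regulators' median there was 0.062, beside −0.0027 over all tested genes. These 3 calls also ended without PBS replicates 1 and 2, at −0.21 for Ugp2, −0.16 for Gclc and −0.23 for Ahr, with PBS again 1 library. They ended without PBS replicate 1 alone, at −0.28, −0.17 and −0.25, and without PBS replicate 2 alone, where the folds were −0.33, −0.28 and −0.41. Without PBS replicate 3 all 3 passed. Gclc also missed without siRNA replicate 1, Ugp2 and Gclc without siRNA replicate 2 or 3, and Ahr without any 1 siRNA + TTR REVERSIR library.

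No call fell among the 10 tested other conjugating enzymes, the 4 deconjugating enzymes or the 7 exporters in any of the 9 comparisons of 2 groups or the tests over several groups by edgeR. At most 1, 1 and 3 of them had an unadjusted p under 0.05 in any 1 test. The 3 of 7 exporters came for scrambled REVERSIR against PBS, beside 14.7% of all tested genes. They came also for siRNA + scrambled REVERSIR against scrambled REVERSIR, beside 6.22%. Over these tests 2.17% to 20.1% of all tested genes had an unadjusted p under 0.05, and 0% to 2.62% were called. DESeq2 was not run on these lists. Nnmt, a methyltransferase of nicotinamide, was at 1.63 ± 0.65 (SE) for siRNA against PBS (adjusted p = 0.155, edgeR). Slc27a5, which activates bile acids for conjugation, was at 0.22 ± 0.095 (SE) for TTR REVERSIR against PBS (adjusted p = 0.24, edgeR). The sulfatase Arsa was at 0.39 ± 0.12 (SE) for TTR REVERSIR against scrambled REVERSIR (adjusted p = 0.438, edgeR), and the glucuronidase Gusb at 0.18 ± 0.080 (SE) for siRNA + scrambled REVERSIR against PBS (adjusted p = 0.251, edgeR). The exporters Abcc4 and Abcg2 were at −1.43 ± 0.38 (SE) for siRNA + scrambled REVERSIR against scrambled REVERSIR (adjusted p = 0.509, edgeR) and at 0.26 ± 0.081 (SE) for scrambled REVERSIR against PBS (adjusted p = 0.134, edgeR).

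The authors' deposited tables, made with DESeq2, list log2 fold changes against PBS for all 52 members. An adjusted p was given for 22 of the 52 for siRNA, 22 for scrambled REVERSIR and 25 for TTR REVERSIR. In the combined groups it was given for 16 with scrambled REVERSIR and 22 with TTR REVERSIR. Members without an adjusted p could not pass. The share of all genes past 0.05 in the deposited tables was not counted. In the DESeq2 run made here, 3.46% of all tested genes were called for siRNA, 1.52% for scrambled REVERSIR and 1.39% for TTR REVERSIR. In the combined groups that run called 1.45% with scrambled REVERSIR and 1.61% with TTR REVERSIR. In the authors' deposited table for siRNA, 3 members had an adjusted p under 0.05: Ugt2b1 at −0.31 (adjusted p = 0.00853), Ugt1a1 at −0.37 (adjusted p = 0.0104) and Sult2a8 at −0.34 (adjusted p = 0.0184). The authors' deposited table for scrambled REVERSIR had Ugt2b1 at −0.39 (adjusted p = 0.00266) and Sult2a8 at −0.34 (adjusted p = 0.0376). For TTR REVERSIR the authors' deposited table had Ugt2b1 alone, at −0.30 (adjusted p = 0.0253). In the authors' deposited table for siRNA + scrambled REVERSIR, Ugt2b1 was at −0.30 (adjusted p = 0.0144) and Mgst1 at −0.17 (adjusted p = 0.0356). Ugt1a9 was the 1 member past 0.05 in the authors' deposited table for siRNA + TTR REVERSIR, at 0.26 (adjusted p = 0.0436). Of these, Sult2a8 for scrambled REVERSIR, Mgst1 and Ugt1a9 did not pass in the edgeR fit above. Neither did Ugt2b1 for TTR REVERSIR or for siRNA + scrambled REVERSIR. The deposited folds and SEs were small even for genes with almost no counts. Mgst2, with 4 counts in all, was at 0.013 ± 0.012 (SE) for scrambled REVERSIR. No source used here says whether the deposited folds were pulled toward no change, so their size is not comparable with edgeR's.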

How the data were processed

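RNA of 18 libraries, 3 in each of 6 groups set by the titles, was counted per gene. For a library of the siRNA + scrambled REVERSIR group the deposited name gives another replicate number than the title, and the title was followed. The authors deposited raw counts, with STAR and NCBIM37 named per the submitters' processing notes; no source used here gives versions, the counting tool, strand or filters. The authors' deposited tables hold DESeq2 log2 fold changes, base means as a normalised signal, a Wald score and p-values against PBS. Symbols in those tables picked the 52 genes, and Ensembl identifiers joined them to the counts. From the counts, edgeR 4.0.16 in R 4.3.3 fitted all 18 libraries with the group as the one factor (filterByExpr, TMM, quasi-likelihood F test, 12 residual degrees of freedom, Benjamini-Hochberg over 11153 genes, threshold 0.05). SE is the fold change over the root of F, with 95% intervals. The script was tested on simulated data. DESeq2 1.42.0, other scalings, no filter, a replicate block, the compared groups alone and left-out libraries were alternatives. Replicate numbers were not used as pairs in the main fit. Residuals of the 45 same-numbered pairs correlated at −0.15 to 0.29, with 6 above 0.1. The 90 other pairs correlated at −0.30 to 0.22, with 10 above 0.1. These values cannot exclude a shared culture or batch. Exon lengths came from GENCODE for NCBIM37 (37205 identifiers matched), upstream bases from RefSeq GRCm38.p6. Members with a call, with the smallest p of a test or the highest level per length of a family are given in every library, and list genes if called or among the up to 2 of smallest p. Members, lists and tests were chosen with earlier results of these data known. Members below 1 CPM per kb had 0 to 20 counts in a library.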

Additional observations from a re-analysis of the deposited data

How the results depend on the processing

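Counts of members called by edgeR in comparisons with PBS depended on the PBS libraries and on the scaling. With library totals alone they were 7 under scrambled REVERSIR, 9 under TTR REVERSIR, 13 under siRNA, and 13 and 12 under siRNA with TTR REVERSIR and with scrambled REVERSIR, all higher, and 1 for any difference among the 6 groups. Of all tested genes 14.2%, 25.8%, 34.5%, 36.7%, 31.9% and 4.11% were called there. That scaling takes the mitochondrial ribosomal RNA of PBS replicates 1 and 2 as depth, and it moved the median of all tested genes by 0.29 to 0.33 on the log2 scale in these comparisons. With no filter on low counts, 3 were called under scrambled REVERSIR, 2 under TTR REVERSIR, 2 in each combined group and 4 among the 6 groups, beside 2.11% to 3.43% of all genes; the cause was not tested. Without PBS replicates 1 and 2, and with the compared groups alone, 0 were called for siRNA and 0 for scrambled REVERSIR, where fewer libraries were fitted and at most 0.0699% of all tested genes were called. DESeq2 called 1 under siRNA with scrambled REVERSIR, 1 under TTR REVERSIR and 2 among the 6 groups, beside 1.45%, 1.39% and 2.01% of all tested genes. Leaving out 1 library gave 0 to 2 under scrambled REVERSIR, 0 to 3 under TTR REVERSIR, 0 to 4 under siRNA, 0 to 3 under siRNA with TTR REVERSIR, 0 to 4 under siRNA with scrambled REVERSIR and 0 to 3 among the 6 groups, and the highest counts came without PBS replicate 3, beside 5.67% to 12% of all tested genes. With the replicate block, Sult2a8 for siRNA was at −0.48 (adjusted p = 0.0583, edgeR) and no longer passed, leaving 2 calls for siRNA, and the block changed no other count of calls. Of the settings above, none gave a call in the 4 comparisons among treated groups or among the 5 treated groups. Gclc, in a run chosen after seeing the data, changed sign by library totals alone, to 0.059. Leaving out the mitochondrial ribosomal RNAs changed none of these counts and raised the summed level per length of GST mu from 280 to 302 CPM per kb. With the longest transcript as length, MGST stood at 473 in place of 276 CPM per kb and Mgst1 passed Gstp1.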
